A study of Rattus norvegicus with 39 samples.

Results

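The tRNAs that read asparagine (Asn), aspartate (Asp), histidine (His) and tyrosine (Tyr) codons were followed in rat sperm small RNA after exposure of the males to EGME, short for ethylene glycol monomethyl ether, an industrial solvent that damages spermatogenic cells. Members were all rows of the genomic tRNA count table whose name gave 1 of these 4 amino acids, which came to 50 of 402 rows. Many rows repeated the counts of another row in every library, so each set of identical rows was used once and is called a count pattern. The 50 rows held 20 of the 238 distinct patterns and 5 of the 49 anticodons.

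Queuosine is a modified guanosine that eukaryotes take up as a base, queuine, from diet and gut bacteria and that the QTRT1 and QTRT2 enzyme pair places at the first anticodon position of these 4 tRNA families. The aspartate and tyrosine tRNAs then receive a sugar on the queuosine, mannose and galactose respectively, and queuosine on tRNA-Asp promotes methylation of a neighbouring cytosine by DNMT2, an enzyme known for its part in sperm small RNA inheritance in mice. Mature sperm carry tRNA mainly as fragments, of which those from the 5′ end are the most studied. Counts of reads do not show whether a given molecule carried the modification.

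Adult male Fischer rats, labelled wild-type and 11-12 weeks old, were given water vehicle (EGME0, the control, n = 10) or EGME at 50, 60 or 75 mg/kg/d by oral gavage for 5 days (EGME50, n = 10; EGME60, n = 9; EGME75, n = 10). All groups then had 5 weeks without exposure before sperm were taken from the cauda epididymis. Each of the 39 libraries was made from the sperm RNA of 1 male, and replicate numbers below are the males' own numbers. The libraries ran on 13 chips of 3 libraries, and each chip held 2 or 3 of the dose groups.

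Distinct tRNA counts per library ranged from 52085, in EGME75 replicate 24, to 5545433, with a median of 2758159 in EGME0 and 1434857 in EGME75. The miRNA table was far shallower, with 1098 to 38208 counts per library in EGME0 and 139 to 8633 in EGME75. EGME75 replicates 7, 23 and 24 held only 995, 807 and 139. The miRNA levels below, their extremes and their 0 values are therefore coarse, and depth differed between the groups. Germ cell miRNAs (miR-34b, miR-34c and miR-449 arms, 6 of 6 listed arms in the table) had a median summed level of 263173 CPM (counts scaled to 1000000 per library) of the miRNA table in EGME0 (197624 to 330892) and 133064 in EGME75 (64748 to 220530). Their defining member miR-34c-5p was above 0 in every library and changed less, with medians of 45384, 42997, 34993 and 34657 CPM from EGME0 to EGME75. Blood cell miRNAs (6 of 7 in the table) had medians of 1136 (0 to 3432) and 7885 (2478 to 48241), with the defining miR-451-5p at 0 in 3 and 1 libraries. Epithelial miRNAs (5 of 5) had medians of 8719 (6249 to 12877) and 24930 (18090 to 47724), and muscle miRNAs (4 of 4) had medians of 16677 (9539 to 32667) and 36987 (11152 to 98000). The defining miR-200c-3p was at 0 in no library of these groups, and miR-143-3p was at 0 in 1 and 2 libraries. Medians of miR-451-5p were 291, 1206, 1651 and 2417 CPM from EGME0 to EGME75. Those of miR-200c-3p were 5666, 7838, 9356 and 10723, and those of miR-143-3p were 863, 1691, 2058 and 1236. The summed marker levels differed between EGME0 and EGME75 alongside the tRNA changes below, and their part in those changes was not tested. In bulk sperm libraries, fewer cells of a type and less RNA per cell cannot be told apart.

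The 4 families were small within the table and unequal in how many genes could be resolved. They took 2.88% ± 0.855 (SD, n = 10) of the distinct tRNA counts in EGME0, 2.56% ± 0.555 (n = 10) in EGME50, 3.42% ± 0.697 (n = 9) in EGME60 and 3.04% ± 0.581 (n = 10) in EGME75, with ranges that overlapped. These shares are sums over patterns that may hold the same reads. Asparagine had 14 rows in 7 patterns, all with anticodon GTT (written as DNA, as the table names it). Aspartate had 15 rows in 3 patterns with anticodon GTC. Histidine had 12 rows with anticodon GTG, on chromosomes 2, 3, 5 and 19, and these shared 1 pattern, so no histidine gene could be told from another. Tyrosine had 8 rows in 8 patterns with anticodon GTA. A further aspartate row, chr1.trna6165 with anticodon ATC, held 2 counts in all, both in EGME0 replicate 1, and was not tested; it lacks the guanosine that queuosine replaces.

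Some patterns of 1 family were nearly equal in counts. The tyrosine patterns of chr15.trna876 and chr6.trna7599 averaged 99.9% and 98.8% of chr2.trna2056-TyrGTA, and chr17.trna1604 and chr17.trna1606 each averaged 17% of it. Among asparagine patterns, chr6.trna177 averaged 83.7% of chr10.trna8581-AsnGTT and the others 57% or less. Gene levels within a family are uncertain, since near-identical genes can share reads. How reads that fit several genes were shared was not given in the sources used here. Each lesser asparagine and aspartate pattern was at or below the top pattern of its anticodon in 39 of 39 libraries. For the lesser tyrosine patterns this held in 38 or 39 libraries. Sums by anticodon may thus count the same read several times. The shares, anticodon levels and ratios below carry this limit.

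At 75 mg/kg/d, the families split: asparagine tRNA counts fell to 0.562-fold of control, while histidine and tyrosine counts rose 1.78-fold and 2.01-fold. Aspartate counts were 1.31-fold of control, which did not pass the test. Levels are CPM of the anticodon table scaled by the trimmed mean of M-values (TMM), and tests are edgeR quasi-likelihood tests with Benjamini-Hochberg adjustment over the 47 anticodons tested, with a threshold of 0.05. By this rule 3 of the 4 anticodons were called at EGME75 (2 higher, 1 lower), against 53.2% of all anticodons (23.4% higher and 29.8% lower), so a call at this dose was common in the table.

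AsnGTT was lowest in the 75 mg/kg/d group. Its lowest, median and highest CPM were 15814, 20203 and 32923 in EGME0, 14276, 17241 and 27204 in EGME50, 11459, 17862 and 46713 in EGME60, and 5916, 13145 and 19534 in EGME75. All 10 EGME75 libraries lay below the control median and 8 lay below every control, while EGME50 and EGME60 overlapped control. The log2 fold change at EGME75 was -0.83 (SE 0.21, adjusted p = 8.7e-04, edgeR). At EGME50 it was -0.33 and at EGME60 -0.11 (adjusted p = 0.904 and 0.784). EGME75 was also below EGME60 by the test, with a log2 fold change of -0.72 (adjusted p = 0.0151), but that call was lost without EGME60 replicate 6, the library with the highest AsnGTT level (-0.48, adjusted p = 0.0627).

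HisGTG, whose tRNA carries an extra guanosine at the 5′ end and is among the tRNAs often described as a source of sperm 5′ fragments, passed the test at the top dose. Its lowest, median and highest CPM were 217, 310 and 406 in EGME0, 179, 301 and 485 in EGME50, 279, 340 and 507 in EGME60, and 357, 576 and 762 in EGME75. Every EGME75 library was above the control median and 7 of 10 were above every control. The log2 fold change at EGME75 was 0.83 (SE 0.18, adjusted p = 1.1e-04, edgeR), against 0.24 at EGME60 and -0.05 at EGME50 (adjusted p = 0.371 and 0.904). The step from EGME60 to EGME75 was itself past the threshold (log2 fold change 0.59, adjusted p = 0.0152, edgeR) but not without EGME75 replicate 7 (0.53, adjusted p = 0.0527).

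TyrGTA, whose nuclear genes carry an intron that is spliced out of the precursor, was already higher at 60 mg/kg/d. Its lowest, median and highest CPM were 149, 238 and 666 in EGME0, 175, 303 and 722 in EGME50, 237, 393 and 1483 in EGME60, and 347, 584 and 963 in EGME75. All 10 EGME75 libraries were above the control median but only 3 were above every control, because EGME0 replicate 33 reached 666. The log2 fold change was 1.07 at EGME60 (SE 0.30, adjusted p = 0.0151) and 1.0 at EGME75 (SE 0.30, adjusted p = 0.0038, edgeR), and 0.24 at EGME50 (adjusted p = 0.904). The difference between EGME60 and EGME75 did not pass (log2 fold change -0.07, SE 0.30, adjusted p = 0.864). With the chip as a fixed term, the EGME60 value was 0.83 and was not called (adjusted p = 0.0714).

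AspGTC, a DNMT2 target, was the least clear of the 4. Its lowest, median and highest CPM were 6130, 8102 and 13062 in EGME0, 5359, 8428 and 14183 in EGME50, 9299, 11526 and 17433 in EGME60, and 7002, 11344 and 22122 in EGME75. All 9 EGME60 libraries exceeded the control median, yet both dose groups overlapped control. The log2 fold change was 0.47 at EGME60 (SE 0.18, adjusted p = 0.0392, edgeR), 0.39 at EGME75 (SE 0.17, adjusted p = 0.0523) and 0.01 at EGME50 (adjusted p = 0.977). The EGME60 call was lost with the chip as a fixed term (0.40, adjusted p = 0.139) and on leaving out any 1 of 8 libraries (EGME0 replicates 1, 2, 9, 10 and 18 and EGME60 replicates 6, 22 and 29), with values between 0.39 and 0.48. EGME75 replicate 7 was far above the other libraries of its group at 22122 CPM, and without it the EGME75 value was 0.27 (adjusted p = 0.121). Leaving out any 1 of 16 other libraries instead brought the EGME75 value past the threshold, at 0.39 to 0.50. These were EGME0 replicates 17, 25, 33 and 34, EGME50 replicates 3, 12, 28 and 36, EGME60 replicates 6, 22 and 38, and EGME75 replicates 16, 23, 24, 39 and 40. Here and below, a library outside the groups compared can act only through the filter, scaling and spread, which all 39 libraries share.

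**Figure D1:**
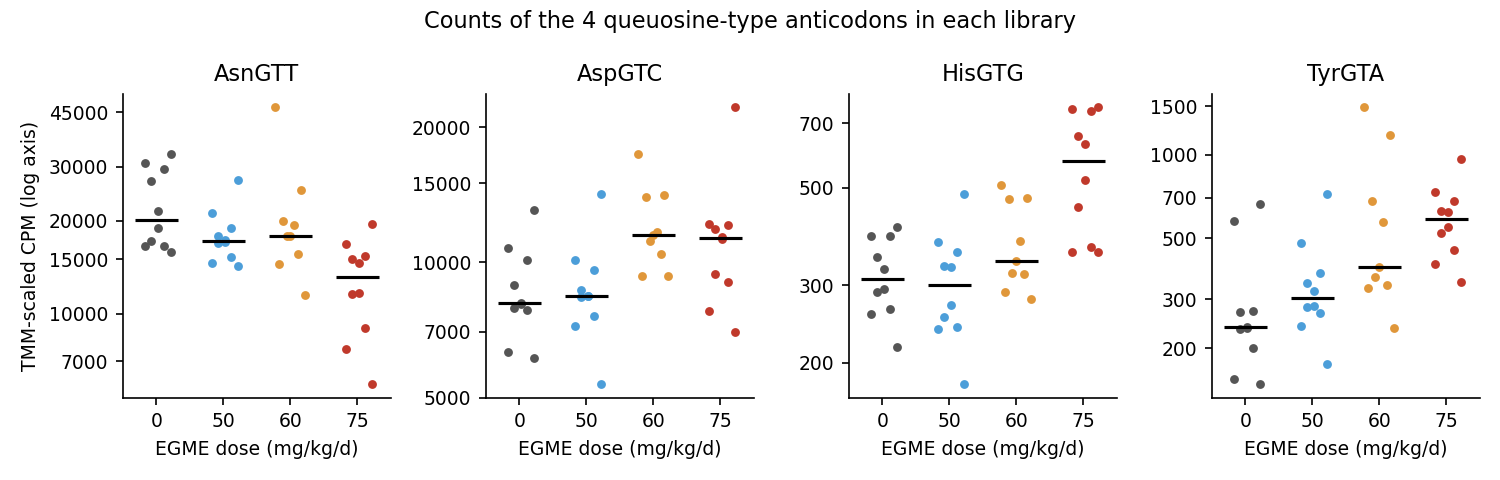
TMM-scaled CPM (log axis) of the 4 anticodons against EGME dose; each point is 1 library and the line is the group median. AsnGTT is lowest at 75 mg/kg/d (median 13145 against 20203 in control), HisGTG is highest there (576 against 310), and TyrGTA is above the control median in all 10 libraries of that dose.

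AspGTC and TyrGTA were the 2 of the 4 called at EGME60, both higher, against 31.9% of all anticodons (14.9% higher and 17% lower). None of the 4 was called at EGME50, where 0% of anticodons were called by edgeR; 2 of the 47 had an unadjusted p under 0.05 by edgeR, as did 2 by DESeq2 and 2 by limma-voom. On a slope over dose, all 4 anticodons passed (3 higher, 1 lower), against 48.9% of all anticodons (21.3% higher and 27.7% lower). Expressed over 75 mg/kg/d, the log2 slopes were -0.62 for AsnGTT (adjusted p = 0.0154), 0.42 for AspGTC (0.0385), 0.66 for HisGTG (0.0036) and 1.06 for TyrGTA (0.0036, edgeR). With the chip as a fixed term 2 of the 4 slopes passed, against 16 of the 47 anticodons. Those of AsnGTT (-0.51, adjusted p = 0.0779) and AspGTC (0.27, adjusted p = 0.237, edgeR) did not. The AspGTC slope was also lost without any 1 of EGME0 replicates 1, 2, 9, 10 and 18 and EGME75 replicate 7 (0.36 to 0.41, adjusted p from 0.0541 to 0.0848). Between neighbouring doses, 2 of the 4 (HisGTG higher, AsnGTT lower) were called from EGME60 to EGME75, against 34% of all anticodons (12.8% higher and 21.3% lower). None was called from EGME50 to EGME60, against 10.6% of all anticodons (2.13% higher and 8.51% lower), and TyrGTA had the highest log2 fold change of the 47 in that step, 0.83 (SE 0.30, adjusted p = 0.0551, edgeR). That TyrGTA step was called when any 1 of 11 libraries was left out (0.83 to 1.01), namely EGME0 replicates 26 and 33, EGME50 replicates 35 and 36, EGME60 replicates 5, 13, 21, 29 and 30, and EGME75 replicates 7 and 24. AspGTC was called in it without EGME50 replicate 36 (0.56, adjusted p = 0.0215) or EGME75 replicate 7 (0.53, adjusted p = 0.0229). With the chip as a fixed term no anticodon was called in either step.

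The calls of AsnGTT, HisGTG and TyrGTA at EGME75 held when any 1 of the 39 libraries was left out, with ranges of -0.92 to -0.68, 0.77 to 0.94 and 0.90 to 1.27. Within chips, where chip was a fixed term, the log2 fold changes were -0.65, 0.78 and 0.88 (adjusted p = 0.028, 0.0023 and 0.0173, edgeR), and AspGTC was at 0.21 (adjusted p = 0.387). Scaling by library totals alone moved the median log2 fold change of all anticodons at EGME75 from 0.04 to 0.46 and the split of calls from 11 higher and 14 lower to 28 higher and 10 lower. Relative to that median, AsnGTT was at -0.88 with TMM and -0.92 with library totals, AspGTC at 0.34 and 0.40, HisGTG at 0.78 and 0.82, and TyrGTA at 0.96 and 0.90. At EGME60 the same change moved the median from 0.02 to 0.24 and the split from 7 higher and 8 lower to 10 higher and 3 lower, and the uncalled AsnGTT value went from -0.11 to 0.01.

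**Figure D2:**
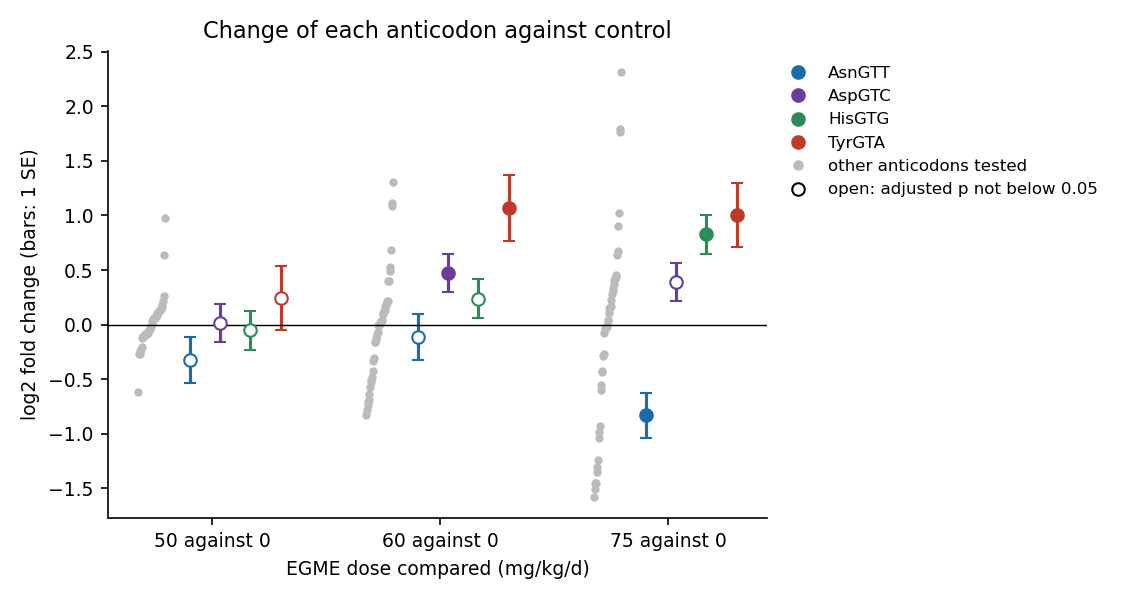
log2 fold change against EGME0 (bars: 1 SE) of the 4 anticodons at each dose, beside the other anticodons tested in grey; open circles did not pass an adjusted p of 0.05. At EGME75 AsnGTT is at -0.83 while HisGTG and TyrGTA are at 0.83 and 1.0, all inside the spread of the other anticodons, which runs from -1.58 to 2.32.

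Since the 4 anticodons were counted in the same libraries, their ratios within a library do not depend on scaling between libraries. Differences in mean log2 ratio (0.5 added to each count) were tested by two-sided permutation over libraries, with adjustment over the 6 pairs and 3 doses, and 5 of 18 tests passed. All 5 had AsnGTT as the denominator.

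The log2 ratio of TyrGTA to AsnGTT ran from -7.07 to -5.62 in EGME0 with a median of -6.35, and from -5.40 to -3.23 in EGME75 with a median of -4.35. These groups did not overlap, and the difference in means was 1.96 (SE 0.27, permutation p = 6e-05, adjusted p = 9e-04). It was 1.13 at EGME60 (SE 0.37, adjusted p = 0.0187, permutation test) and 0.59 at EGME50, which did not pass (adjusted p = 0.0793).

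HisGTG to AsnGTT rose by 1.65 at EGME75 (SE 0.32, permutation p = 1e-04, adjusted p = 9e-04), with 10 of 10 libraries above the control median, and differed by 0.41 at EGME60 (adjusted p = 0.336, permutation test). AspGTC to AsnGTT rose by 0.65 at EGME60 (SE 0.23, adjusted p = 0.0195) and by 1.22 at EGME75 (SE 0.30, adjusted p = 0.0013, permutation test), with 8 of 9 and 9 of 10 libraries above the control median. On medians in place of means, neither AspGTC to AsnGTT value passed (0.51 at EGME60 and 0.91 at EGME75, both adjusted p = 0.0508), nor did TyrGTA to AsnGTT at EGME60 (0.68, adjusted p = 0.0678). Centred on chip means, AspGTC to AsnGTT at EGME60 was 0.56 and did not pass (adjusted p = 0.0568).

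Among the 3 anticodons whose counts were not lower, no pair passed this test with all libraries. At EGME75 the difference was 0.74 for TyrGTA to AspGTC (SE 0.31, adjusted p = 0.0793), 0.43 for HisGTG to AspGTC (SE 0.19, adjusted p = 0.0793) and 0.31 for TyrGTA to HisGTG (SE 0.30, adjusted p = 0.353, permutation test). TyrGTA to AspGTC passed without EGME0 replicate 26 (0.86), EGME0 replicate 33 (0.90) or EGME75 replicate 7 (0.84), with adjusted p from 0.0184 to 0.0465. HisGTG to AspGTC passed without EGME75 replicate 7 (0.49) or EGME75 replicate 24 (0.50), with adjusted p of 0.0465 and 0.0449 (permutation tests). TyrGTA to AsnGTT at EGME50 passed without EGME0 replicate 26 (0.66) or 33 (0.67).

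**Figure D3:**
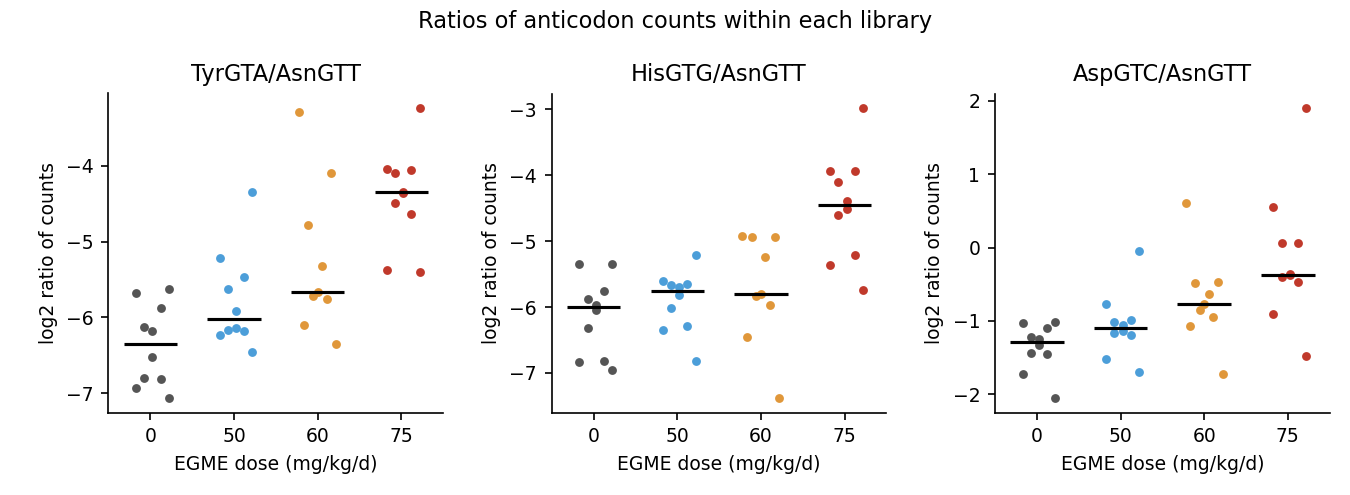
log2 ratio of the counts of TyrGTA, HisGTG and AspGTC to those of AsnGTT within each library, by EGME dose; lines are group medians. The TyrGTA ratios of the EGME75 libraries (-5.40 to -3.23) all lie above those of the EGME0 libraries (-7.07 to -5.62).

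At the level of count patterns, 17 of the 19 tested members were called at EGME75 (12 higher, 5 lower), against 64.7% of the 190 patterns tested (36.8% higher and 27.9% lower). Without EGME75 replicate 7, 16 of the 19 were called and the split of all patterns went from 70 higher and 53 lower to 52 higher and 65 lower. The median log2 fold change of the 19 was 1.03, beside 0.16 for all patterns. Of the 19, 8 were tyrosine patterns, and 3 of these had nearly equal counts. So had chr17.trna1604 and chr17.trna1606 (2249 and 2251 counts in all), and likewise chr17.trna1605 and chr17.trna3876 (505 and 497). The 19 are therefore not separate signals, and both the number called and the median partly repeat the same counts. At EGME60, 11 of 19 were called, all higher, against 21.6% of all patterns (18.9% higher and 2.63% lower, or 36 and 5 patterns). That split depended on scaling, with 34 higher and 26 lower under relative log expression (RLE) factors, where 12 members were called. It also changed with single libraries. Without EGME75 replicate 7, which is outside this comparison, 26 patterns were higher and 40 lower. Without EGME60 replicate 38, 18 were higher and 30 lower. Asparagine members called as lower at EGME60 in such fits were chr2.trna4111 (-0.63 to -0.57), without any 1 of EGME50 replicate 36, EGME60 replicate 38 and EGME75 replicates 7, 24, 31 and 40, and chr1.trna6224 (-0.93 to -0.77), without any 1 of those or EGME60 replicate 6. On the slope over dose, 14 of 19 passed (12 higher, 2 lower), against 61.1% of all patterns (37.9% higher and 23.2% lower). The slopes of chr10.trna8581, chr10.trna9278 and chr2.trna4115 passed as lower without any 1 of EGME50 replicate 36, EGME60 replicates 6 and 38 and EGME75 replicates 7, 24, 31 and 40 (-0.78 to -0.43), the last 2 patterns also without EGME0 replicate 9, and chr6.trna177 without EGME60 replicate 38 (-0.44). The slope of chr10.trna2458-AspGTC was lost without any 1 of those libraries other than EGME60 replicate 6 and EGME0 replicate 9 (0.22 to 0.43), and that of chr7.trna8813-AspGTC without EGME75 replicate 7 (0.34). With the chip as a fixed term, 12 of the 19 were called at EGME75, 9 at EGME60 and 13 on the slope. Of all 190 patterns, 105, 31 and 91 were called under that setting. At EGME50 no member was called, and 0% of patterns were called by edgeR; 15 patterns had an unadjusted p under 0.05 by edgeR, 12 by DESeq2 and 13 by limma-voom.

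The asparagine patterns did not all go one way at EGME75: 5 were lower, 1 was higher and 1 was not called. The pattern with the most counts, chr10.trna8581-AsnGTT (7 rows on chromosomes 2, 7, 10, 12, 13 and 17), had medians of 4983, 4651, 6019 and 4114 CPM from EGME0 to EGME75 and a log2 fold change of -0.52 at EGME75 (SE 0.21, adjusted p = 0.0281, edgeR). That call was lost without any 1 of EGME0 replicates 17, 25, 26 and 33 or EGME75 replicate 39, with values between -0.48 and -0.45. The largest decrease was that of chr1.trna6224-AsnGTT, with medians of 1464, 1297, 788 and 629 CPM and a log2 fold change of -1.12 (SE 0.26, adjusted p = 3e-04, edgeR). All 10 EGME75 libraries were below its control median and 7 were below every control. Between these, chr2.trna4111 (2 rows), chr10.trna9278 and chr2.trna4115 fell by 0.95, 0.85 and 0.83 on the log2 scale, and chr6.trna177 was at -0.41 without a call (adjusted p = 0.105, edgeR); it was called without any 1 of EGME50 replicate 36, EGME60 replicate 38 and EGME75 replicates 7, 24, 31 and 40 (-0.59 to -0.56). With the chip as a fixed term, the calls of chr1.trna6224 (-1.01) and chr2.trna4111 (-0.83) held, and those of chr10.trna8581 (-0.32, adjusted p = 0.255), chr10.trna9278 (-0.58, adjusted p = 0.102) and chr2.trna4115 (-0.58, adjusted p = 0.0876) did not.

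The exception was chr11.trna746-AsnGTT, which held 12 counts per library on average. Its counts ran from 0 to 14 with a median of 6 in EGME0, from 2 to 46 with a median of 15 in EGME60, and from 0 to 51 with a median of 10 in EGME75. On the CPM scale 8 of 10 EGME75 libraries were above every control. The log2 fold change was 1.09 at EGME60 (adjusted p = 0.0133) and 1.36 at EGME75 (SE 0.34, adjusted p = 6e-04, edgeR), and the EGME60 call was lost without EGME60 replicate 38 (0.69, adjusted p = 0.145) and without any 1 of EGME50 replicate 36 and EGME75 replicates 7, 24, 31 and 40 (each 0.83). Its ratio to chr10.trna8581-AsnGTT within a library rose by 1.83 on the log2 scale at EGME75 (SE 0.34, permutation p = 2.4e-04, adjusted p = 0.0108). The highest of these EGME75 ratios, -8.25, came from EGME75 replicate 24, which held 0 counts of chr11.trna746 and 152 of chr10.trna8581. That ratio was thus set by the value added to each count and by low depth, not by reads of chr11.trna746. The part of depth in the rise of 1.83 was not tested. That rise was the 1 difference that passed among 45 tests of patterns against the most abundant pattern of their anticodon. That family of tests was added after the data had been seen.

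In the aspartate family, chr7.trna8813-AspGTC had medians of 4736, 4864, 7420 and 7418 CPM from EGME0 to EGME75, with 9 of 9 EGME60 and 9 of 10 EGME75 libraries above the control median. Its log2 fold changes were 0.69 at EGME60 (SE 0.22, adjusted p = 0.0181) and 0.72 at EGME75 (SE 0.22, adjusted p = 0.0033, edgeR). The pattern of chr10.trna2458-AspGTC, shared by 13 rows, was close to it, at 0.67 and 0.59. Neither was called at EGME60 with the chip as a fixed term (0.59, adjusted p = 0.0768, and 0.55, adjusted p = 0.0814). By contrast, chrX.trna6496-AspGTC had medians of 944, 979, 1084 and 853 CPM and log2 fold changes of 0.11 and -0.01, neither called (adjusted p = 0.731 and 0.978).

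Both aspartate calls at EGME75 rested on EGME75 replicate 7. Without it, chr7.trna8813 was at 0.27 (adjusted p = 0.169) and chr10.trna2458 at 0.11 (adjusted p = 0.546, edgeR). The call of chr10.trna2458 was also lost without any 1 of EGME50 replicate 36, EGME60 replicate 38 and EGME75 replicates 24, 31 and 40 (0.42 to 0.44). Fitting the chip as a fixed term gave 0.51 (adjusted p = 0.0548) and 0.38 (adjusted p = 0.132). At EGME60, neither was called without EGME60 replicate 38 (0.45, adjusted p = 0.125, and 0.38, adjusted p = 0.174), nor without any 1 of EGME50 replicate 36 and EGME75 replicates 24, 31 and 40. The difference between chrX.trna6496 and chr7.trna8813 within a library at EGME75 was -0.71 on the log2 scale (SE 0.27) and did not pass (adjusted p = 0.0832, permutation test).

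All 12 histidine rows shared the pattern of chr19.trna3946-HisGTG. Its log2 fold change against the 190 patterns was 1.03 at EGME75 (SE 0.16), above the 0.83 of the anticodon table, whose scaling was set on other features. At EGME60 it was 0.39 and was not called (adjusted p = 0.0716, edgeR).

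The 8 tyrosine patterns were all higher at EGME60 and at EGME75, with log2 fold changes of 1.23 to 1.68 and 1.20 to 1.70. All 8 calls at EGME75 held with the chip as a fixed term (1.05 to 1.41). For chr2.trna2056-TyrGTA, the one with the most counts, the lowest, median and highest CPM were 41.8, 63.9 and 185 in EGME0 and 104, 171 and 290 in EGME75, and all 10 EGME75 libraries were above the control median. The lowest value at EGME75 among patterns with at least 10 counts on average was that of chr15.trna876-TyrGTA (1.20, SE 0.31), whose counts nearly equal those of chr2.trna2056. The highest was that of chr17.trna3876-TyrGTA (1.70, SE 0.41, adjusted p = 4e-04, edgeR), which held 12.7 counts per library on average, with 0 to 16 in EGME0 and 0 to 38 in EGME75. At EGME60 the calls of chr17.trna1605 and chr17.trna3876 were lost without EGME60 replicate 38 (1.07 and 1.10), the library with the highest TyrGTA level.

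**Figure D4:**
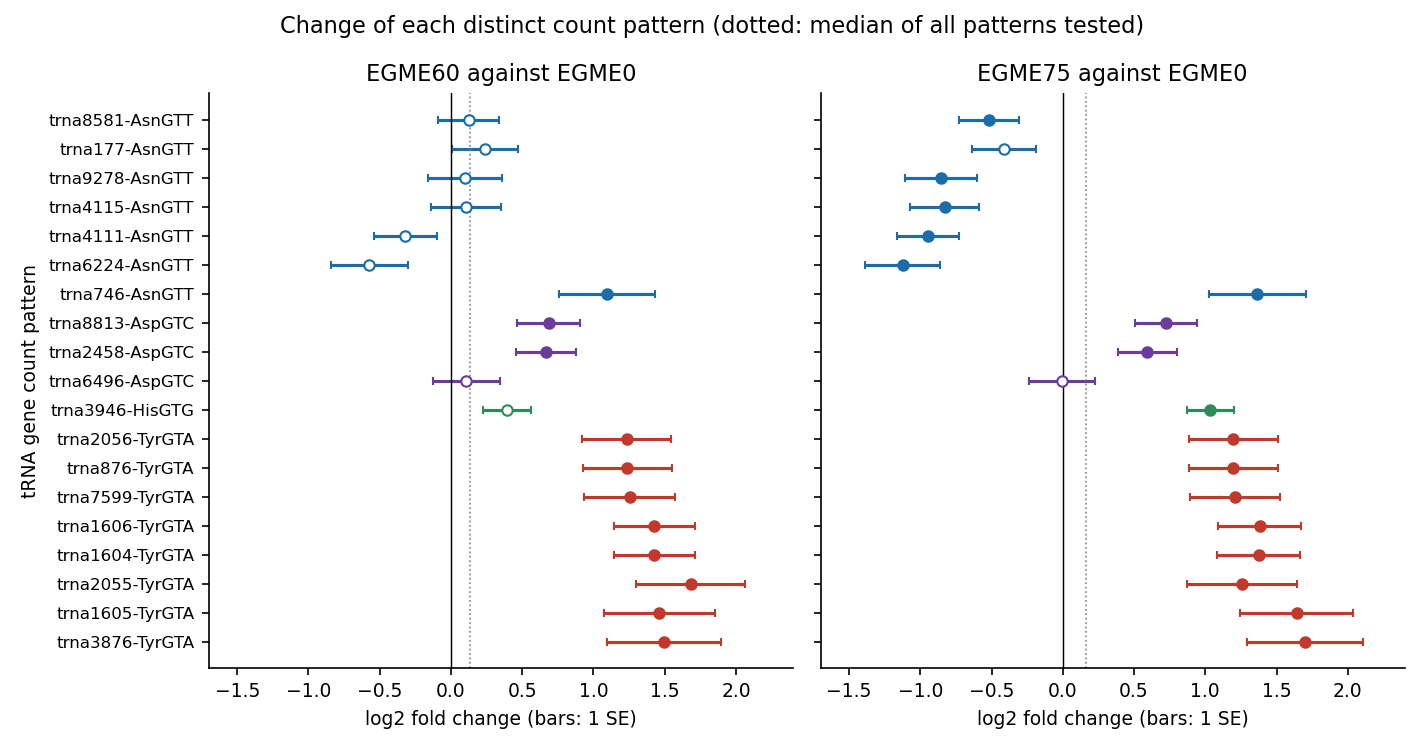
log2 fold change against EGME0 (bars: 1 SE) of the 19 tested count patterns at EGME60 and EGME75, ordered within each family by mean count; open circles did not pass an adjusted p of 0.05 and the dotted line is the median of all 190 patterns. The 8 tyrosine patterns lie between 1.20 and 1.70 at EGME75, while 6 of the 7 asparagine patterns lie below 0 and chr11.trna746 is at 1.36.

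Of the 5 other anticodons that start with guanosine, whose tRNAs do not receive queuosine, none was higher and 3 were lower at EGME75, with a median log2 fold change of -0.55, beside 2 higher, 1 lower and a median of 0.61 for the 4 queuosine-type anticodons and 0.04 for all 47. Over all 47 anticodons, 23.4% were higher and 29.8% lower at EGME75. Of 8 anticodons starting with A, which mostly carry inosine there, 3 were higher and 2 lower (median 0.42). Those starting with T had 1 higher and 5 lower of 15 (median -0.27), and those starting with C had 5 higher and 3 lower of 15 (median 0.17). Among the 3 DNMT2 targets (AspGTC, GlyGCC and ValAAC), 1 was higher and none lower (median 0.39). Among 7 families often described as sources of sperm 5′ fragments, of which HisGTG is one, 4 were higher and none lower (median 0.83). The lists overlap, and differences between them were not tested.

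Across the 39 libraries, the anticodon most like AsnGTT in log2 CPM was IleAAT (Spearman's rho 0.72), followed by ArgTCT (0.56) and the selenocysteine anticodon (0.54). AspGTC was most like LysCTT (0.66), ThrAGT (0.53) and TyrGTA (0.52). HisGTG was most like GlnCTG (0.80), ValAAC (0.76) and ArgTCG (0.76), and TyrGTA was most like ValCAC (0.82), LysCTT (0.81) and GluCTC (0.81). Among the 4, AsnGTT had a rho of -0.49 with HisGTG, -0.18 with TyrGTA and -0.09 with AspGTC. These values describe points that share libraries, depth, scaling and dose.

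A second deposited table, of RNAcentral entries, gave another picture for names of the same amino acids. It was scaled by its own library totals without TMM, and may count some of the same reads. Its names do not say whether an entry is nuclear or mitochondrial. No histidine entry was found by the name search used for the other amino acids. The largest tyrosine entry held 66541 counts over all libraries, beside 13220 for chr2.trna2056-TyrGTA, the largest genomic tyrosine pattern. Not all reads of that entry can therefore be in that pattern. The 13 tyrosine entries (9 distinct) had a median summed level of 3356 CPM of that table in EGME0 (1236 to 7524), 3894 in EGME50, 2461 in EGME60 and 732 in EGME75 (83.9 to 4857). The genomic TyrGTA median, on the unlike TMM scale, was 238 CPM in EGME0 and 584 in EGME75. Of the 13, 8 had a lower median at EGME75 than in control, none a higher one, and 5 had a median of 0 in both. Those 5 held 2 counts each over all libraries. Tyrosine entries with 57861, 56593, 54390 and 54291 counts were much alike in their medians and may hold the same reads. The 8 are therefore not separate signals, and the summed level may count the same reads several times. The aspartate entries, 5 of 7 above 0, had medians of 7332, 6890, 4998 and 4249 CPM from EGME0 to EGME75, and all 5 were lower at EGME75. Nearly all of this level came from 1 entry with 741118 counts over all libraries. The others held 99 to 1604 counts and were near the floor at EGME75. The 3 asparagine entries had medians of 99.9, 152, 102 and 84.4 CPM; at EGME75 the median was lower than in control for 2 of them and higher for 1 (11.7 and 22.1 CPM). These values are given without a test. The share of all entries of that table with a lower median at EGME75 is not given here.

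**Figure D5:**
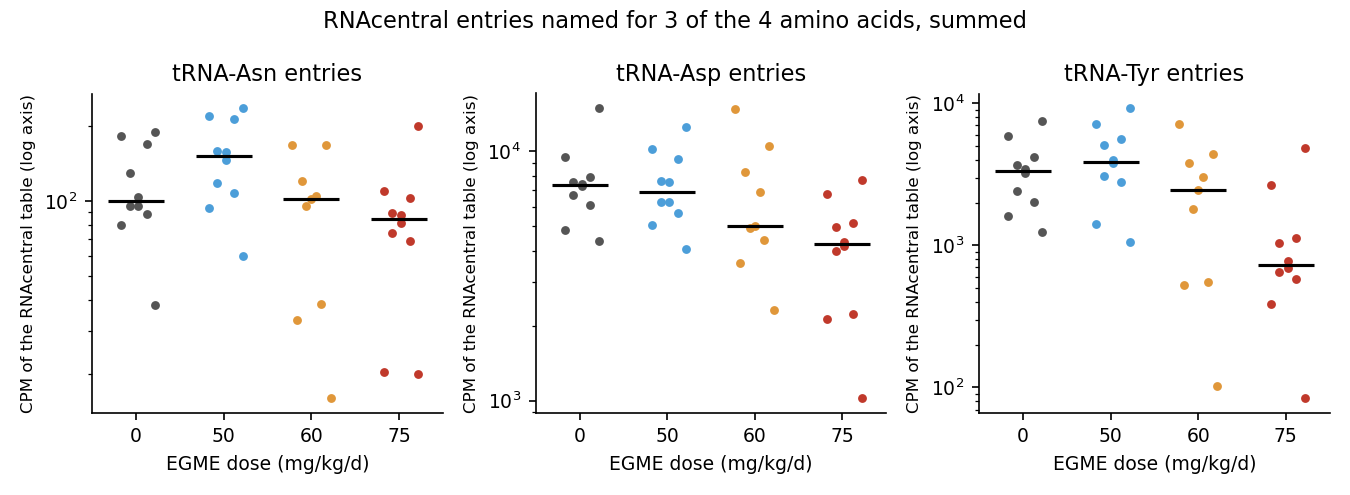
Summed CPM of the RNAcentral table (log axis) of entries named for tRNA-Asn, tRNA-Asp and tRNA-Tyr against EGME dose; each point is 1 library and lines are group medians. The tyrosine median is 3356 in EGME0 and 732 in EGME75, with overlapping libraries.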

How the data were processed

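Small RNA was measured in sperm of 39 rats. Per the labels' protocols, 10 ng of mirVana-extracted, DNase-treated RNA entered the Ion total RNA-seq kit. The authors deposited tables of raw counts on the sense strand; those of genomic tRNAs, RNAcentral entries and miRNAs supplied the values, and all tables entered 1 denominator below. The submitters' processing notes name FastQC, Bowtie and DESeq2 without versions or roles. How reads that fit several genes were treated, and trimming, are not given in the sources used here. The files name the Rnor_6.0 build; no coordinates or sequences were used.

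Distinct patterns were summed by anticodon, leaving out 2 rows of unknown anticodon. Anticodon and pattern counts went into edgeR 4.0.16 (R 4.3.3): TMM, filterByExpr by group, robust quasi-likelihood fits over all 39 libraries, two-sided. SEs were taken as the log2 fold change divided by the square root of F. The fit was tested on simulated data. Ratios used 100000 resamples, or every regrouping where a group had 9. Alternatives were RLE factors, library totals alone, no filter, all deposited rows, chip or depth terms, DESeq2 1.42.0, limma-voom (limma 3.58.1), only the groups compared, and leaving out each library. Named patterns per family are the one with most counts and, among patterns averaging 10 counts or more, those with the highest and lowest change at EGME75; the remaining patterns are named to account for every member. Members and lists were chosen with earlier results of these data known.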

Additional observations from a re-analysis of the deposited data

Results flagged for a closer look

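Of 44 groups of values checked, 6 held a library whose gap to its nearest neighbour was large against the group's range (Dixon's test). For independent groups with normally distributed values, chance flags about 1 in 20. The groups here shared libraries and the CPM values were not log-transformed, so that rate need not hold. AsnGTT was 27204 CPM in EGME50 replicate 11 (next 21179) and 46713 CPM in EGME60 replicate 6 (next 25241). AspGTC was 22122 CPM in EGME75 replicate 7 (next 12147). The log2 ratio of HisGTG to AspGTC was -6.31 in EGME50 replicate 36, and that of TyrGTA to HisGTG was 2.01 in the same library. TyrGTA to HisGTG was 1.39 in EGME75 replicate 23.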

How the results depend on the processing

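No paired analysis was possible because each replicate number belongs to 1 male of 1 group. No value named in the report for an anticodon or a ratio was turned by an alternative once it was called. AspGTC was past the threshold at EGME75 under RLE factors (0.42), library totals alone (0.86), no filter (0.43), all deposited rows (0.39), DESeq2 (0.42) and the highest row per anticodon (0.47, chosen after seeing the data), with adjusted p from 5e-04 to 0.0493. At EGME60 it was not called with the highest row (0.44) or the chip term (0.40), which also ended the TyrGTA call (0.83). Slopes no longer passed for AsnGTT under library totals (-0.33) and the chip term (-0.51), and for AspGTC under the chip term (0.27), limma-voom (0.39), also when chip was its random block (0.38).

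Counts of called anticodons became 1 at EGME50 with log10 total as a covariate, 3 at EGME60 with the chip term and 38 at EGME75 with library totals. Between EGME60 and EGME50 they became 0 with RLE factors, library totals, no filter, the chip term or only the groups compared, from 5. Between EGME75 and EGME60 they became 10 with library totals, 0 with the chip term and 10 with only the groups compared, from 16. Called patterns became 2 at EGME50 with the covariate, 107 (all deposited rows) or 63 (DESeq2) at EGME60, 202 at EGME75 and 186 for the slope (all deposited rows, where repeated rows count again). The EGME75 split was 70 higher and 53 lower, against 87 and 38 with library totals, 65 and 67 with no filter and 101 and 101 with all rows.

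Among ratios, TyrGTA to AspGTC at EGME75 passed with all rows (0.77). Medians ended TyrGTA to AsnGTT (0.68) and AspGTC to AsnGTT (0.51) at EGME60 and AspGTC to AsnGTT at EGME75 (0.91), and centring on chips ended AspGTC to AsnGTT at EGME60 (0.56). The share of the 4 families was 1.30%, 1.20%, 1.24% and 1.03% from EGME0 to EGME75 of all tables, and 4.48%, 3.95%, 5.13% and 4.56% with all rows.

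Leaving out 1 library gave 0.39 to 0.56 for AspGTC at EGME60, 0.27 to 0.50 at EGME75 and 0.36 to 0.51 for its slope. Called anticodons ranged from 0 to 1 at EGME50, 8 to 17 at EGME60, 0 to 11 between EGME60 and EGME50 and 6 to 18 between EGME75 and EGME60. The lowest values came without EGME60 replicate 22 (8, and 9 without replicate 29) and without EGME75 replicate 7 (6). Called patterns ranged from 0 to 1 at EGME50 and 38 to 66 at EGME60 (66 without EGME75 replicate 7, which is outside that comparison). Ratio differences ranged from 0.33 to 0.50 for HisGTG to AspGTC at EGME75, 0.43 to 0.67 for TyrGTA to AsnGTT at EGME50 and 0.59 to 0.90 for TyrGTA to AspGTC at EGME75. Causes were not tested. Depth limits chr11.trna746, chr17.trna1605 and chr17.trna3876 most, with means near 12 to 13 counts.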
